A study of Mus musculus with 18 samples.

Results

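The negative feedback genes of ERK signalling and its ETS outputs were described in mouse embryonic stem cells (mESCs) held on soft and stiff hydrogels. The set comprised 10 genes: the dual-specificity phosphatases Dusp4, Dusp5, Dusp6 and Dusp14, the Sprouty genes Spry2 and Spry4, the Sprouty-related genes Spred1 and Spred2, and the ETS transcription factors Etv4 and Etv5. Members were chosen by symbol, and all 10 matched a row among the 46078 genes of the count table. All 10 also passed the filter on low counts and were among the 13438 protein-coding genes tested.

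The cells were E14 mESCs, an established line from 129 mice that the labels give as wild type, and no group carried a genetic change or a drug. All groups were kept for 24 h on fibronectin-coated StemBond gels in serum medium with LIF, a cytokine that holds mESCs undifferentiated. StemBond gels are polyacrylamide gels made with the co-factor AHA (6-acrylamidohexanoic acid). AHA provides the points at which matrix protein is tethered to the gel. Soft gels had a stiffness near 750 Pa and stiff gels near 160 kPa. Each was made with AHA at 16 mM (low), 48 mM (mid) and 80 mM (high), which gave 6 groups of 3 libraries. Nothing in the labels says that the libraries of a group came from separate cultures, so the p-values measure the spread between libraries, which may be technical.

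ERK is the last kinase of a cascade that runs from growth factor receptors through RAS, RAF and MEK. In mESCs it is driven largely by autocrine FGF4 and is known for moving cells out of the naive state. Active ERK induces its own brakes: dual-specificity phosphatases remove the activating phosphates from MAP kinases, and Sprouty and Spred proteins act upstream on the receptor, RAS and RAF steps. Etv4 and Etv5 belong to the PEA3 group of ETS factors, whose transcription follows FGF and ERK activity in many tissues. The transcript levels of these genes are therefore often read as a record of ERK output, but no kinase activity was measured in these libraries.

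Gene counts per library ranged from 5850621 to 9290261. ERCC spike-in RNAs took 0.607 to 0.725% of counts in 17 libraries and 1.37% in 1 soft, high AHA library (replicate 1). That library was left out of the fit, so that 8 soft and 9 stiff libraries entered it and the soft, high AHA group held 2. The mESC identity was checked on 8 defining markers, whose summed level was 1906 to 2053 CPM on soft and 1783 to 1951 CPM on stiff gels. CPM here is the count of a gene scaled with TMM to a common total over the tested genes. In the average over AHA, 5 of the 8 were called higher on soft gels and 1 lower, where 8.59% of all tested genes were called in either direction. The pluripotency factor Nanog, at 136 CPM on soft and 105 CPM on stiff gels, was higher by 0.38 ± 0.040 (log2 fold change with SE, adjusted p = 5.08e-14), with every soft library above every stiff one. The marker called lower was Utf1, at -0.14 ± 0.031 (edgeR, adjusted p = 5.99e-04). The part of these markers in the results was not tested. Of the other marker lists, the summed primitive endoderm level was 31.7 to 45.4 CPM on soft and 32.8 to 44.8 CPM on stiff gels, mesoderm 17.6 to 27.5 and 15.2 to 30.9 CPM, and neuroectoderm 105 to 115 and 86.0 to 108 CPM. Mesp1 and Neurog2, defining markers of the last pair, had at most 2 counts in any library. The fibroblast list summed to 115 to 197 CPM on soft and 165 to 235 CPM on stiff gels, with Dcn at 0 to 4 counts a library. That list moved with stiffness in the direction of most genes described here, through Col1a1, and its part in the results was not tested.

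Stiffness was the first comparison, which asked whether these genes differed between soft and stiff gels. Averaged over the AHA concentrations, 6 of the 10 genes were called lower on soft gels and 0 higher (edgeR quasi-likelihood test, Benjamini-Hochberg adjusted p under 0.05 over all tested genes), where 4.82% of all tested genes were called lower and 8.59% in either direction. The 6 were all 4 phosphatases, Etv4 and Spred1. Both Sprouty genes, Spred2 and Etv5 were not called. The median log2 fold change of the 10 genes, soft minus stiff, was -0.16, while that of all tested genes was 0.0011. In bulk libraries, fewer cells that express a gene and less of its RNA per cell cannot be told apart. For 3 of the 10 genes, Dusp4, Dusp14 and Etv4, every soft library lay below every stiff library, which held for 0.871% of all tested genes.

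**Figure D1:**
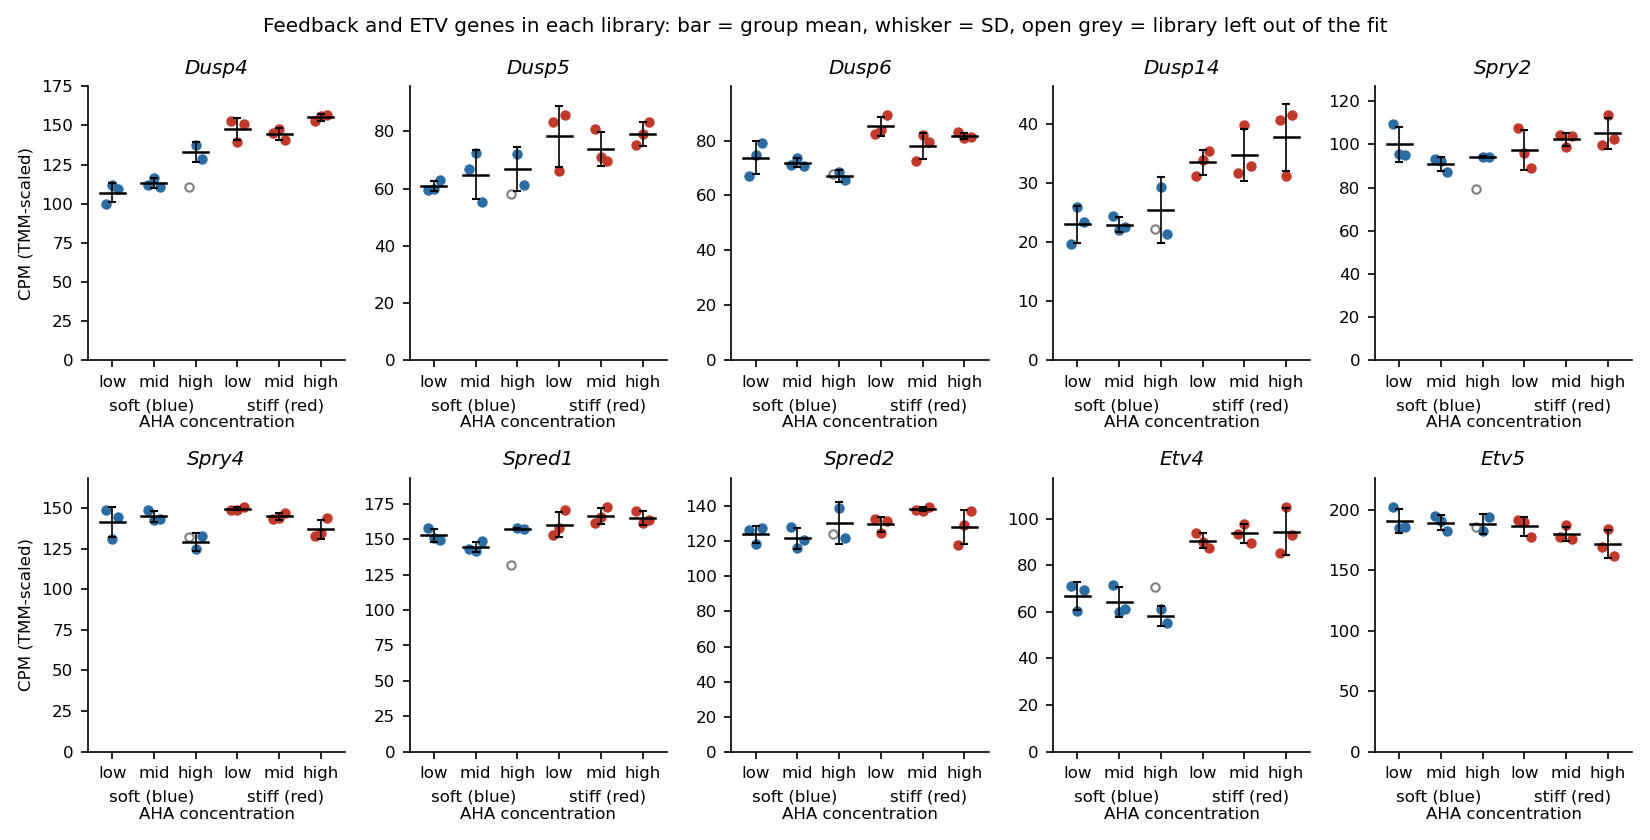
Level of each gene in each library (vertical axis, CPM scaled with TMM, starting at 0) for the 6 groups (horizontal axis), with the group mean as a bar and the SD as a whisker (n = 3, and n = 2 for soft, high AHA). The blue soft libraries lie below all red stiff libraries for Dusp4, Dusp14 and Etv4, and the open grey point is the library left out of the fit, scaled with all 18 libraries.

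Dusp4 (chr8:34807297-34819894, GRCm38, plus strand) encodes a nuclear phosphatase that acts on ERK and other MAP kinases. On soft gels its level was 100.1, 111.6 and 109.5 CPM at low AHA, 112.1, 116.6 and 110.9 CPM at mid AHA, and 137.3 and 128.6 CPM at high AHA. On stiff gels it was 152.6, 139.5 and 150.7 CPM at low, 144.9, 147.8 and 140.5 CPM at mid, and 152.7, 156.1 and 156.4 CPM at high AHA. The highest soft value, from the high AHA group, thus stayed below the lowest stiff value, from the low AHA group. Averaged over AHA, the log2 fold change of Dusp4 was -0.35 ± 0.038 (adjusted p = 1.92e-13, ± SE here and for the fold changes that follow), a change of -21.3% (95% interval -25.3 to -17.1%). Per length of exon, Dusp4 had the highest mean level of the 10 genes, at 48.7 CPM per kb.

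Dusp14 (chr11:84048041-84069261, GRCm38, minus strand), an atypical small dual-specificity phosphatase, was the least abundant member per length, at 15.4 CPM per kb, with 98 to 265 raw counts a library. Its soft levels were 19.7, 26.0 and 23.4 CPM at low, 24.5, 22.0 and 22.5 CPM at mid, and 29.4 and 21.5 CPM at high AHA. Its stiff levels were 31.2, 34.0 and 35.4 CPM at low, 31.7, 39.9 and 33.0 CPM at mid, and 40.7, 31.3 and 41.5 CPM at high AHA. The groups did not overlap, with 29.4 CPM the highest soft and 31.2 CPM the lowest stiff value. The average log2 fold change was -0.57 ± 0.079 (adjusted p = 3.57e-09), the most negative of the 10, or -32.7% (95% interval -39.6 to -25.1%). Replicates within a group varied by 13.6% (coefficient of variation), against 7.85% from counting alone.

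Dusp5 (chr19:53529109-53542431, GRCm38, plus strand) encodes a nuclear phosphatase specific for ERK, and Dusp6 (chr10:99263231-99267489, GRCm38, plus strand) its cytoplasmic counterpart. Dusp5 ranged from 55.4 to 72.5 CPM on soft gels (median 62.1) and from 66.0 to 85.6 CPM on stiff gels (median 79.0). The ranges overlapped, but all 8 soft libraries lay below the stiff median. The average log2 fold change of Dusp5 was -0.27 ± 0.053 (adjusted p = 8.51e-05). An unnamed gene model on the opposite strand, AC137853.2, covers 22.1% of the exon bases of Dusp5, and without the strand setting of the counting its reads cannot be told apart from those of Dusp5.

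Dusp6 ranged from 65.6 to 79.1 CPM on soft gels (median 71.0) and from 72.7 to 89.2 CPM on stiff gels (median 81.9). Again the ranges overlapped while all 8 soft libraries lay below the stiff median. Its average log2 fold change was -0.20 ± 0.049 (adjusted p = 0.00142), or -13.2% (95% interval -18.8 to -7.22%). The calls of Dusp4, Dusp5, Dusp6, Dusp14 and Etv4 averaged over AHA held in every one of the 25 alternative fits.

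The promoter of Dusp5 is shown because it was the only one of the members' windows to hold any motif searched for. RefSeq windows from 250 bases before to 50 bases after the start (GRCm38.p6) were found for 7 of the 10 genes, and Dusp4, Spry4 and Etv4 had none in the table used. The letters CCGGAAG (ETS factors), TGAATGAA and TGAATGGA (Capicua, a repressor relieved by ERK), TGANTCA (AP-1), TGACGTCA (CRE) and GGAATG (TEAD factors), and the SRF CArG box by its name, were searched on both strands. Among the 32851 windows of the table, 8.86% held the ETS letters, 7.81% those of AP-1, 14.7% those of TEAD, 1.30% and 1.21% those of Capicua, 1.79% those of CRE and 1.63% a CArG box. The Dusp5 window held 2 CArG boxes next to each other, and 0 of the 7 members held any of the other letters. A match is a description of letters, not of binding, and 2 or more CArG boxes were found in 6 windows (0.0183%). The sequence below covers the bases of that window before the annotated start of the gene (chr19:53528895-53529108, plus strand, 214 bases, 5′ to 3′), with the CArG boxes in capitals.
Dusp5: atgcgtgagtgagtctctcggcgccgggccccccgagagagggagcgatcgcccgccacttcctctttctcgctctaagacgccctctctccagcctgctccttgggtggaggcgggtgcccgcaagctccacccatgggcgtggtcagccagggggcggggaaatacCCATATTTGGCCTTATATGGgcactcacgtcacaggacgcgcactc

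The Sprouty genes were not called in the average. Spry2 (chr14:105891947-105896819, GRCm38, minus strand) ranged from 87.3 to 109.3 CPM on soft gels (median 94.2) and from 89.0 to 113.4 CPM on stiff gels (median 102.3), so the groups overlapped over most of their range. Its average log2 fold change was -0.095 ± 0.044 (adjusted p = 0.192), with a 95% interval of -0.18 to -0.0076. Where replicate 2 or replicate 3 of the soft, high AHA group was left out in place of replicate 1, Spry2 was called, at -0.14 (adjusted p = 0.0355) and -0.13 (adjusted p = 0.0376), and over all 25 alternatives it was called in 2. The library left out of the fit held 79.2 CPM of Spry2, below every other soft library.

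Spry4 (chr18:38586247-38601415, GRCm38, minus strand) had the flattest profile across stiffness, from 125.0 to 148.6 CPM on soft gels (median 142.9) and from 132.8 to 150.7 CPM on stiff gels (median 143.7). Stiffness held 8.05% of the sum of squares of its levels across libraries, the smallest share of the 10 genes, against 86.6% for Etv4. The average log2 fold change of Spry4 was -0.057 ± 0.037 (adjusted p = 0.418), with a 95% interval of -0.13 to 0.017. Its lowest group was soft, high AHA, where both libraries (125.0 and 132.7 CPM) lay below all 3 stiff, high AHA libraries (132.8, 134.4 and 143.7 CPM), by a margin that the test did not call (log2 fold change -0.090 ± 0.070, adjusted p = 0.724).

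Spred1 and Spred2 encode membrane proteins that bring neurofibromin to RAS. Spred1 (chr2:117121374-117182279, GRCm38, plus strand) ranged from 141.7 to 158.3 CPM on soft gels (median 150.3) and from 153.1 to 172.9 CPM on stiff gels (median 163.3). All 8 soft libraries lay below the stiff median, though the ranges overlapped. Its average log2 fold change was -0.11 ± 0.035 (adjusted p = 0.0227), the smallest change among the 6 genes called, or -7.62% (95% interval -12.0 to -3.04%). The Spred1 call was lost on leaving out stiff, low AHA replicate 3 (adjusted p = 0.102), soft, low AHA replicate 2 (0.0529) or 3 (0.0571), soft, high AHA replicate 3 (0.0549), stiff, mid AHA replicate 3 (0.0549) or stiff, high AHA replicate 1 (0.0524).

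Spred2 (chr11:19924375-20024026, GRCm38, plus strand) ranged from 116.5 to 138.9 CPM on soft gels (median 124.1) and from 117.9 to 139.7 CPM on stiff gels (median 132.7), nearly the same range. Its average log2 fold change was -0.073 ± 0.039 (adjusted p = 0.287), with a 95% interval of -0.15 to 0.0046.

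Among the pairs of relatives compared, only Etv4 and Etv5, the ETS factors, had a ratio that separated soft from stiff libraries. Etv4 by itself also separated them. Etv4 (chr11:101769742-101785371, GRCm38, minus strand) measured 71.0, 60.2 and 69.2 CPM on soft gels at low AHA, 71.6, 59.9 and 61.3 CPM at mid and 61.2 and 55.1 CPM at high AHA. On stiff gels it measured 93.8, 89.9 and 87.6 CPM at low, 93.4, 97.8 and 89.7 CPM at mid, and 85.0, 105.0 and 93.1 CPM at high AHA. No soft library exceeded 71.6 CPM and no stiff library fell under 85.0 CPM. The average log2 fold change was -0.56 ± 0.050 (adjusted p = 2.56e-18), or -31.9% (95% interval -36.4 to -27.1%), and Etv4 ranked 16 by p among all tested genes.

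Etv5 (chr16:22381309-22439719, GRCm38, minus strand) was the member with the most counts, 766 to 1234 a library. It ranged from 182.5 to 202.6 CPM on soft gels (median 188.2) and from 162.1 to 191.8 CPM on stiff gels (median 177.6). The ranges overlapped, with all 8 soft libraries above the stiff median. The average log2 fold change was 0.080 ± 0.034 (adjusted p = 0.141), with a 95% interval of 0.013 to 0.15, so Etv5 was the sole member with a fold change above 0 and was not called. Per length of exon, the ratio of Etv4 to Etv5 averaged 0.443 in soft libraries (SD 0.0381, n = 8) and 0.684 in stiff libraries (SD 0.0463, n = 9). The highest soft ratio was 0.492 and the lowest stiff ratio 0.624. The ratios of Dusp4 to Dusp6, Spry2 to Spry4 and Spred1 to Spred2, taken in the same way, overlapped between soft and stiff gels.

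**Figure D2:**
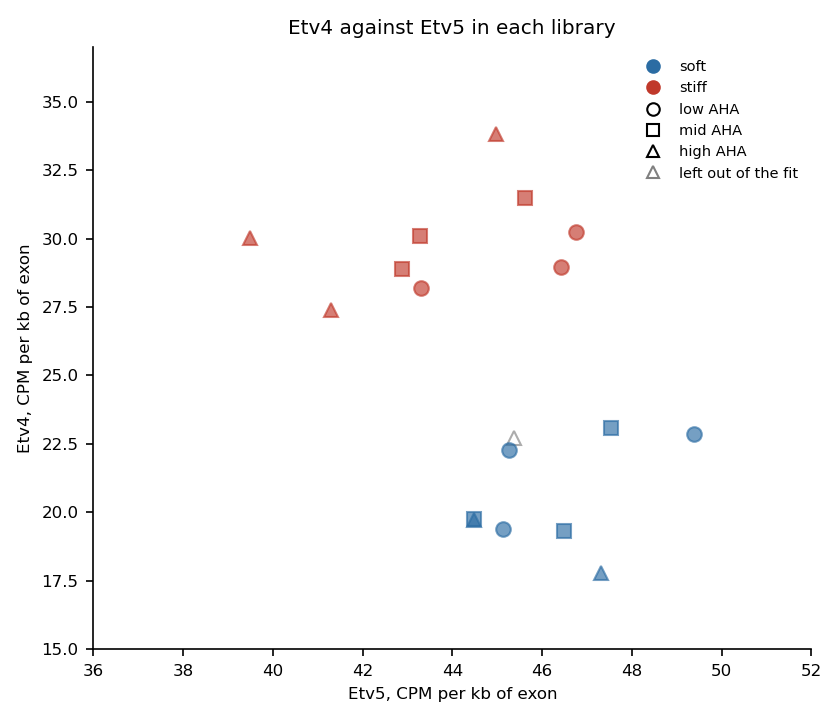
Etv4 (vertical axis) against Etv5 (horizontal axis), each in CPM per kb of exon, with 1 point per library, coloured by stiffness and shaped by AHA concentration, and axes that do not start at 0. Soft and stiff libraries separate along the Etv4 axis, with a mean ratio of 0.443 on soft and 0.684 on stiff gels, and overlap along the Etv5 axis. A soft, mid AHA and a soft, high AHA point lie almost on top of each other.

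The comparison was then made at each AHA concentration, which asked at which strength of matrix tethering the genes differed by stiffness. At low AHA, 4 of the 10 genes were called lower on soft gels, where 2.19% of all tested genes were (3.04% in either direction). They were Dusp4 (log2 fold change -0.47 ± 0.065, adjusted p = 1.15e-08), Etv4 (-0.44 ± 0.083, adjusted p = 7.23e-05), Dusp5 (-0.37 ± 0.089, adjusted p = 0.00366) and Dusp14 (-0.54 ± 0.13, adjusted p = 0.00614). Dusp6, at -0.21 ± 0.081, was not called (adjusted p = 0.178). The call of Dusp5 was lost without stiff, low AHA replicate 1 (adjusted p = 0.0625) or replicate 3 (0.0951), and that of Dusp14 without soft, low AHA replicate 1 (0.126) or stiff, low AHA replicate 3 (0.0612), which left 2 genes called without the last-named library.

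At mid AHA, 4 of the 10 genes were again called lower on soft gels, against 1.85% of all tested genes (2.86% in either direction). Dusp4 (log2 fold change -0.35 ± 0.064, adjusted p = 3.20e-05), Dusp14 (-0.61 ± 0.13, adjusted p = 0.00105) and Etv4 (-0.54 ± 0.082, adjusted p = 3.08e-07) were called here too, and Spred1 (-0.21 ± 0.059, adjusted p = 0.0298) took the place of Dusp5 (-0.19 ± 0.088, adjusted p = 0.328). The Spred1 levels behind this were 143.4, 141.7 and 148.7 CPM on soft and 161.6, 165.5 and 172.9 CPM on stiff gels, with no overlap. Its call was lost without TMM scaling (adjusted p = 0.0565) and without soft, mid AHA replicate 1 (0.125) or 2 (0.130) or stiff, mid AHA replicate 2 (0.0895) or 3 (0.177), and that of Dusp14 without stiff, mid AHA replicate 2 (0.0616), which left 2 genes called.

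At high AHA, 2 of the 10 genes were called lower on soft gels, against 0.432% of all tested genes (0.841% in either direction). They were Etv4 (log2 fold change -0.68 ± 0.094, adjusted p = 1.25e-07) and Dusp14 (-0.57 ± 0.14, adjusted p = 0.0203). The library left out of the fit held 70.5 CPM of Etv4, above both kept libraries, and the fold change was -0.59 with all 18 libraries and -0.57 or -0.51 with replicate 2 or 3 left out in place of replicate 1. Dusp4 (-0.22 ± 0.070, adjusted p = 0.114), Dusp6 (-0.28 ± 0.091, adjusted p = 0.118) and Dusp5 (-0.24 ± 0.098, adjusted p = 0.308) were not called with the 2 soft libraries kept. With all 18 libraries 5 genes were called, and the added ones were Dusp4 (-0.30, adjusted p = 9.01e-04), Dusp5 (-0.30, adjusted p = 0.0347) and Dusp6 (-0.28, adjusted p = 0.0347). With replicate 2 left out in place of replicate 1 it was also 5, but with Spry2 (-0.28, adjusted p = 0.0473, against -0.15 and 0.530 as reported) and without Dusp6 (adjusted p = 0.0575). Dusp5 was then at -0.41 (adjusted p = 0.00593), and it ran from -0.38 to -0.13 with each library left out in turn. The Dusp14 fold change ran from -0.84 to -0.38 with each library left out in turn. It was -0.38 without soft, high AHA replicate 3, with only replicate 2 left in that group. Its call was lost without stiff, high AHA replicate 1 (adjusted p = 0.113) or 3 (0.156), which left Etv4 alone.

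**Figure D3:**
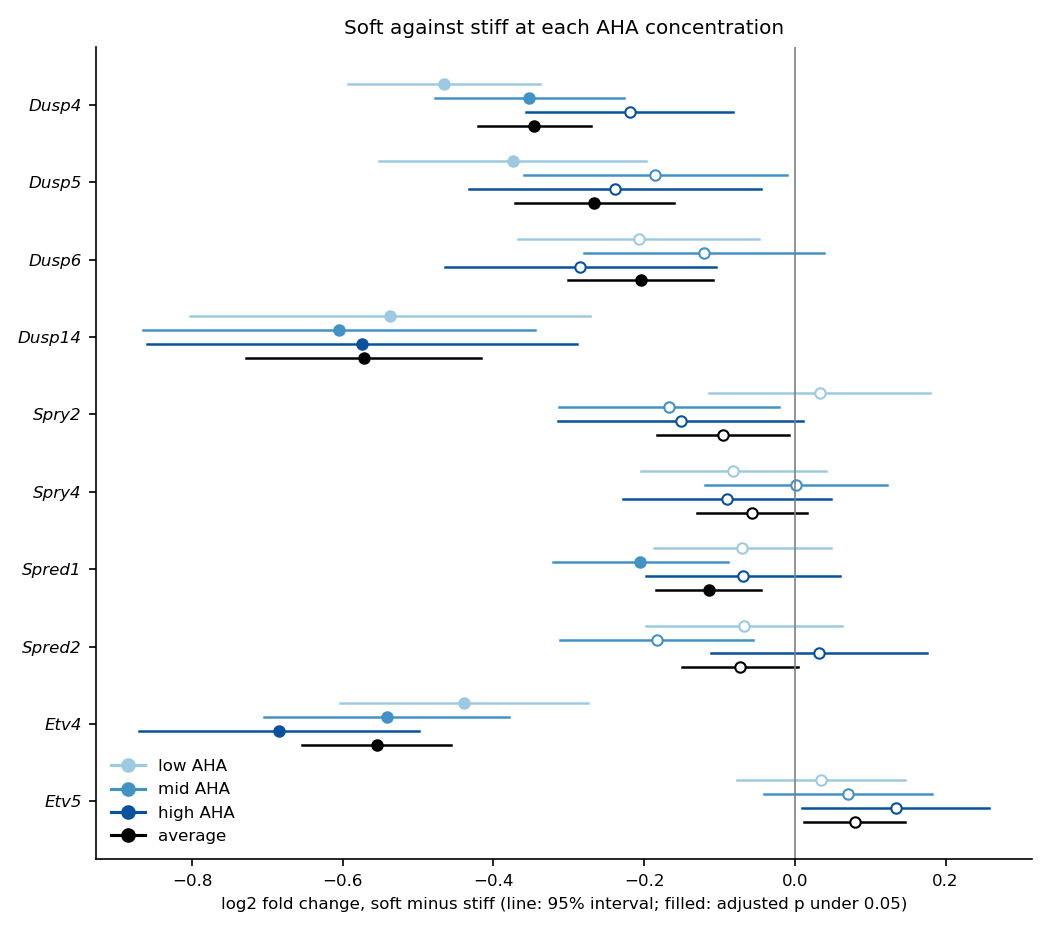
Log2 fold change of soft minus stiff (horizontal axis) for each gene at low, mid and high AHA and in the average, with the 95% interval as a line and filled points for an adjusted p under 0.05. Dusp14 and Etv4 are filled at each AHA concentration, Dusp4 at low and mid AHA, Dusp5 at low AHA and Spred1 at mid AHA, and the average is filled for 6 of the 10 genes.

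Whether the stiffness difference itself changed with AHA was tested with an F test on the 3 differences. It called 0 of the 10 genes (edgeR quasi-likelihood test, adjusted p under 0.05), against 0.0298% of all tested genes, and DESeq2 also called 0. The unadjusted p in edgeR was under 0.05 for 902 of the 13438 tested genes and for 1 of the 10. That gene was Dusp4 (unadjusted p = 0.0369, adjusted p = 0.729), whose fold change was -0.47 at low, -0.35 at mid and -0.22 at high AHA. With replicate 2 of the soft, high AHA group left out in place of replicate 1, the Dusp4 value at high AHA was -0.37 (adjusted p = 1.67e-04), below the value at mid AHA. Calls at a single AHA concentration are therefore not shown to differ from the other concentrations.

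Tethering was compared next, within each stiffness. On soft gels, high against low AHA called 1 of the 10 genes, Dusp4, against 0.253% of all tested genes (34 genes, but 2 without soft, high AHA replicate 2 and 8 without soft, low AHA replicate 1). Dusp4 was higher at high AHA by 0.31 ± 0.072 (log2 fold change, adjusted p = 0.0138), or 24.3% (95% interval 12.6 to 37.1%), and the F test over the 3 concentrations also called Dusp4 alone of the 10 (adjusted p = 0.0428), against 0.201% of all tested genes. Its 2 soft, high AHA libraries (137.3 and 128.6 CPM) lay above all 6 soft libraries at low and mid AHA, the highest of which was 116.6 CPM. The library left out of the fit, however, held 110.9 CPM of Dusp4, inside the low and mid AHA range.

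With that library kept, the high against low AHA difference of Dusp4 on soft gels was 0.23 (adjusted p = 0.118), and it was 0.16 (0.538) or 0.21 (0.245) with replicate 2 or replicate 3 of that group left out in its place. It was also not called without soft, high AHA replicate 2 (0.26, adjusted p = 0.474) or soft, low AHA replicate 1 (0.27, adjusted p = 0.247). The F test call of Dusp4 was lost under the same 5 settings, with adjusted p-values of 0.239, 0.717, 0.440, 0.603 and 0.263 in that order. It was lost as well without soft, high AHA replicate 3 (0.0653), soft, low AHA replicate 3 (0.0689) or soft, mid AHA replicate 1 (0.0520), without TMM scaling (0.0567) and with only the soft groups fitted (0.0619).

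The other members were not called between AHA concentrations on soft gels. Of these, Etv4 (-0.19 ± 0.097, unadjusted p = 0.0471, adjusted p = 0.580) and Spry4 (-0.13 ± 0.070, unadjusted p = 0.0552, adjusted p = 0.602) had the lowest p-values for high minus low AHA. The Etv4 value was -0.024 (adjusted p = 0.978) with soft, high AHA replicate 3 dropped instead of replicate 1. On stiff gels, 0 of the 10 genes were called for high against low AHA (edgeR), where 0.00744% of all tested genes were (1 gene, but 15 without stiff, high AHA replicate 1), and DESeq2 also called 0. An unadjusted p under 0.05 was found for 2, Spry4 (log2 fold change -0.13 ± 0.062) and Etv5 (-0.12 ± 0.057), each with an adjusted p of 0.813. The same unadjusted threshold was met by 812 of the 13438 tested genes. On stiff gels Spry4 was 148.9, 148.8 and 150.7 CPM at low and 132.8, 134.4 and 143.7 CPM at high AHA, without overlap. The F test over the AHA concentrations on stiff gels called 0 of the 10 in edgeR and in DESeq2, against 0.00744% of all tested genes called in edgeR. Its unadjusted p in edgeR was under 0.05 for 0 of the 10 and for 817 of the 13438 tested genes.

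In order of group means, the 3 stiff groups stood above the 3 soft groups for 6 genes: Dusp4, Dusp5, Dusp6, Dusp14, Spred1 and Etv4. The share of all tested genes with such an order, or with such gaps between neighbouring groups, was not computed. For Etv5 the 3 soft groups stood above the 3 stiff groups, from 191 CPM at soft, low AHA to 172 CPM at stiff, high AHA, with each neighbouring pair of groups overlapping. Dusp4 ran from 155 CPM at stiff, high AHA through stiff, low and stiff, mid AHA to soft, high, soft, mid and, at 107 CPM, soft, low AHA. Of the 5 neighbouring pairs in that order, 3 did not overlap, while stiff, low and stiff, mid AHA and also soft, mid and soft, low AHA did. For Etv4 and Dusp14, 1 neighbouring pair was apart, the step from the lowest stiff group (low AHA in each gene) to the highest soft group, which was low AHA for Etv4 and high AHA for Dusp14. In Dusp5 and Spred2 no neighbouring pair was apart, and in Dusp6 the single gap lay between soft, mid and soft, high AHA. Spry2, Spry4 and Spred2 mixed soft and stiff groups in their order, and their lowest group held 86.5, 86.2 and 88.0% of the mean of their highest.

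Levels between genes were compared per length of exon. After Dusp4 at 48.7 CPM per kb, Spry2 (47.2) and Etv5 (44.9) had the highest mean levels over the 17 libraries, followed by Spry4 (29.8), Dusp5 (28.6), Spred2 (27.8), Etv4 (25.5), Dusp6 (24.5), Spred1 (23.3) and Dusp14 (15.4). Within groups, replicates of Dusp4 (3.79%), Dusp6 (4.74%), Spry4 (3.75%) and Spred1 (3.38%) varied about as much as counting alone gives (3.72, 4.90, 3.61 and 3.42% in that order). Dusp5 varied by 10.1% against 5.10% from counting and Etv4 by 7.65% against 4.85%.

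The rest of the pathway was read from lists of genes by role, in the average of soft minus stiff. Among the cascade itself, 0 of 8 adaptors between receptor and RAS, 0 of 7 RAS genes and RAS brakes and 0 of 3 RSK kinases were called (edgeR, adjusted p under 0.05). Of 9 RAF, MEK and ERK kinases and scaffolds, 1 was called lower, Braf, at -0.15 ± 0.049 (adjusted p = 0.0367), and this call was lost in 12 of 25 alternatives. Mapk3, which encodes an ERK kinase (0.11 ± 0.064, adjusted p = 0.312), and the MEK genes Map2k1 (0.020 ± 0.042, adjusted p = 0.857) and Map2k2 (-0.067 ± 0.033, adjusted p = 0.214) were not called. Of 7 p38 and JNK kinases 0 were called. These counts, and those of the lists that follow, stand beside 8.59% of all tested genes called in either direction.

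Of 7 other MAP kinase phosphatases, 2 were called lower on soft gels. Dusp9, an ERK phosphatase with the highest level per length of these lists' phosphatases (86.4 CPM per kb), averaged 216 CPM on soft gels (SD 16.0, n = 8) and 252 CPM on stiff gels (SD 10.7, n = 9). Its log2 fold change was -0.21 ± 0.032 (adjusted p = 5.49e-08). Dusp1, an immediate early phosphatase, stood at -0.16 ± 0.049 (adjusted p = 0.0227), a call lost in 9 of 25 alternatives. Neither Spry1 (0.12 ± 0.087, adjusted p = 0.456) nor Spred3 (-0.15 ± 0.082, adjusted p = 0.315) was called. Of 6 other feedback inhibitors of receptor and RAS, 1 was lower and 1 higher. Errfi1, which inhibits the EGF receptor, stood at -0.23 ± 0.054 (adjusted p = 0.00111), and Il17rd (Sef), which acts on FGF signalling, at 0.20 ± 0.052 (adjusted p = 0.00504).

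Of 8 other ETS factors, 2 were called lower, Ets1 (-0.33 ± 0.078, adjusted p = 0.00150) and Elk3 (-0.34 ± 0.098, adjusted p = 0.0119, lost in 2 of 25 alternatives). Etv1, the remaining PEA3 member, averaged 5.57 CPM on soft gels (SD 1.43, n = 8) and 5.75 CPM on stiff gels (SD 1.18, n = 9) and was not called (adjusted p = 0.933). Of 8 other ERK output genes, 6 were called lower and 1 higher. The lower genes were Ccnd1, which encodes cyclin D1 (-0.28 ± 0.040, adjusted p = 1.16e-08), Epha2 (-0.19 ± 0.030), Hmga2 (-0.38 ± 0.067), Phlda1 (-0.35 ± 0.064), Myc (-0.22 ± 0.041) and Plaur (-0.29 ± 0.061), with adjusted p-values from 1.16e-08 to 1.86e-04, and the higher gene was the ephrin receptor Epha4 (0.22 ± 0.050, adjusted p = 6.27e-04). The median log2 fold change of this list was -0.26, below the -0.16 of the 10 genes described.

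Of 10 immediate early genes tested, 4 were called lower and 1 higher. The 2 most changed genes went opposite ways: Fos, a subunit of AP-1, averaged 12.9 CPM on soft gels (SD 0.742, n = 8) and 7.41 CPM on stiff gels (SD 3.28, n = 9), with a log2 fold change of 0.81 ± 0.14 (adjusted p = 1.98e-06). Ier3 averaged 3.92 CPM (SD 0.655) and 7.21 CPM (SD 1.48) in the same libraries (-0.86 ± 0.18, adjusted p = 1.30e-04). Fosl2 (-0.27 ± 0.058, adjusted p = 2.00e-04) was called lower in all 25 alternatives, while the calls of Fosl1 (-0.35 ± 0.12, adjusted p = 0.0488) and Srf (-0.11 ± 0.039, adjusted p = 0.0471) were lost in 16 and 17 of them. Among 8 FGF ligands and receptors 1 was called, a share near that 8.59%. It was higher on soft gels: Fgf4, the autocrine ligand of mESCs, with a mean of 135 CPM on soft gels (SD 8.26, n = 8) and 112 CPM on stiff gels (SD 5.83, n = 9) (log2 fold change 0.28 ± 0.040, adjusted p = 1.18e-08).

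**Figure D4:**
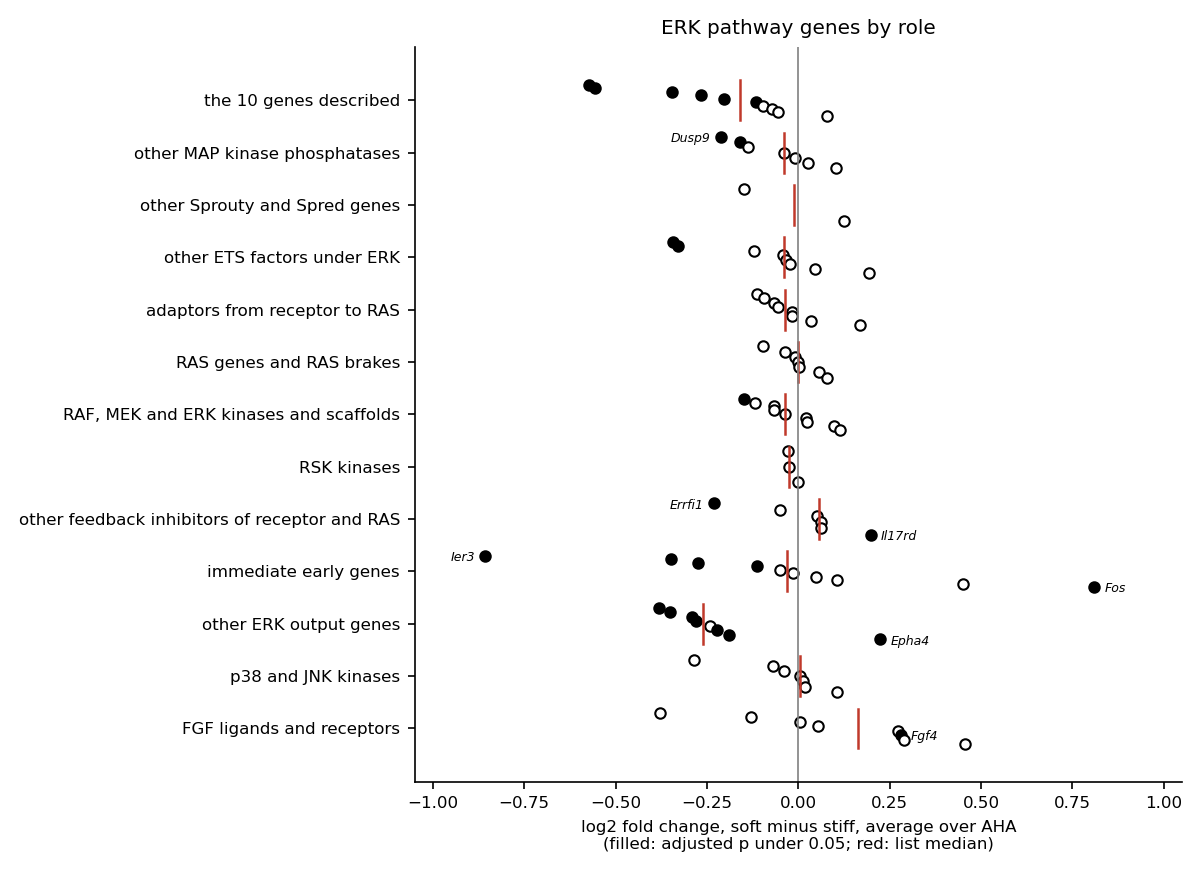
Log2 fold change of soft minus stiff, averaged over AHA (horizontal axis), for each tested gene of the lists by role (vertical axis), filled for an adjusted p under 0.05, with a red line at each list's median. The list of other ERK output genes has the lowest median (-0.26) and the 10 genes described the next (-0.16). The medians of the adaptor, RAS, RAF to ERK and RSK lists lie near 0. So do those of the other MAP kinase phosphatases (-0.040), other ETS factors (-0.038), immediate early genes (-0.032) and other Sprouty and Spred genes (-0.012).

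The genes whose levels across the 17 libraries were most like each member were named by Pearson's r of log2 CPM among 9225 genes with a mean of at least 10 CPM. These r describe libraries that share the soft and stiff split, and they carry no test. Dusp4 was closest to the keratin gene Krt18 (r = 0.97) and to Sfn, which encodes the 14-3-3 sigma protein (r = 0.97). Dusp14 was closest to Amotl2, an angiomotin family gene (r = 0.93), and to Tmcc3 (r = 0.92), and Tmcc3 also came next to Wdr1 for Dusp6 (r = 0.85 for each). Etv4 was closest to Bend3 (r = 0.91) and to Lin28a, which encodes an RNA-binding pluripotency factor (r = 0.91). Dusp5 was closest to Bcar1, which encodes the focal adhesion adaptor p130Cas (r = 0.88), and to Dusp1 (r = 0.87), and Spred1 to Map3k20 (r = 0.86) and Tspan2 (r = 0.85). For the genes not called, r was lower, from 0.76 to 0.82: C1d and Bpnt1 for Spry2, Mknk2 and Slc35e2 for Spry4, Pygb and Fscn1 for Spred2, and Rpl39 and Ticrr for Etv5. With Spearman's rho in place of r, 9 of these 20 pairs stayed among the 2 closest genes of their member.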

How the data were processed

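RNA was sequenced from 18 libraries of E14 mESCs. Per the labels and the study's methods, the authors trimmed reads (Trim Galore 0.4.4), aligned them to mm10 with GSNAP and counted them with HTSeq. The authors deposited whole-number counts of reads for every gene, with no normalisation. Whether counting used strand is not given in the sources used here. HTSeq's 5 summary lines, 61.5 to 64.0% of each column's sum, were left out.

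Symbols and coordinates came from GENCODE M21 (GRCm38). The test was the robust quasi-likelihood test of edgeR 4.0.16 (R 4.3.3) on protein-coding genes kept by filterByExpr at a minimum count of 10, with TMM scaling, 1 coefficient per group and p-values adjusted by Benjamini-Hochberg within a contrast. SEs came from the F statistic. The library with an ERCC share above 1.5 times the median was left out, as the study left out libraries with a high share. Gene counts were 5850621 to 9290261 a library, and the common dispersion was 0.00286. Members, gene lists and tests were chosen with earlier results of these data known. Named genes were all members, up to 8 called genes per list, Mapk3, Map2k1, Map2k2 and Fgf4, and the 2 genes most like each member. Spry1, Spred3 and Etv1, relatives of members that were not called, were named after their values were seen. A gene that the naming rule also held is not reported here. Alternatives were all 18 libraries, another soft, high AHA library left out, size factors (RLE), total counts, DESeq2 1.42.0, a filter of 2 counts, all gene types, only the groups compared, and each library left out in turn.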

Additional observations from a re-analysis of the deposited data

Results flagged for a closer look

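Spry2 in replicate 1 of the soft, low AHA group stood apart from the other soft libraries. It held 109.3 CPM, and the next highest soft library held 95.6 CPM. The gap was 0.621 of the range of the 8 soft libraries, above the 95% critical value of Dixon's test. The test was applied to the highest and the lowest library of each gene on each stiffness, and chance flags about 1 in 20 groups. Without this library, the log2 fold change of Spry2 at low AHA went from 0.033 to -0.034, and it was not called either way.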

How the results depend on the processing

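No paired analysis was possible because the labels give no replicate number shared between groups. Averaged over AHA, the number of the 10 genes called was 6 to 7 under the other settings and 5 to 6 with a library left out. At high AHA it was 2 as reported, 1 with DESeq2 (which gave no adjusted p for Dusp14), 5 with all 18 libraries and 5, with Spry2 and without Dusp6, with soft, high AHA replicate 2 left out in place of replicate 1. For high minus low AHA on soft gels it was 1 as reported, and 0 with all 18 libraries or with soft, high AHA replicate 2 or 3 dropped instead of replicate 1. For any AHA difference on soft gels it was 1 as reported, and 0 under those 3 settings, without TMM and with only the groups compared. With each library left out in turn these counts were 2 to 4 at low AHA, 2 to 4 at mid AHA, 1 to 2 at high AHA, 0 to 1 for high minus low AHA on soft gels and 0 to 1 for the F test on soft gels. For high minus low AHA on stiff gels, for any AHA difference on stiff gels and for unequal stiffness differences it was 0 under every setting run.

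Some values that were not called changed sign with the choice of soft, high AHA library. With replicate 2 left out in place of replicate 1, soft minus stiff at high AHA was -0.056 for Spred2 (0.032 as reported), and high minus low AHA on soft gels was -0.030 for Dusp5 (0.14), -0.077 for Dusp14 (0.15), -0.085 for Spred1 (0.042) and -0.014 for Spred2 (0.076). For Spred1 it was also -0.040 with all 18 libraries and -0.076 with replicate 3 left out in place of replicate 1. The cause was not tested. With a library left out, the sign changed for 15 of 1020 fold changes. For soft minus stiff, the ranges were -0.034 to 0.12 for Spry2 and -0.0084 to 0.059 for Etv5 at low AHA, -0.013 to 0.014 for Spry4 at mid AHA and -0.078 to 0.12 for Spred2 at high AHA. For high minus low AHA on soft gels they were -0.11 to 0.35 for Dusp14, -0.032 to 0.17 for Spred2 and -0.064 to 0.020 for Etv5, and on stiff gels -0.094 to 0.070 for Dusp5, -0.081 to 0.038 for Spred2 and -0.025 to 0.12 for Etv4. With Spearman's rho 9 of the 20 most like pairs remained. With promoter windows that ended at the start, 1 of 7 members still held a motif.

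The number of all tested genes called at high AHA was 113 as reported, 341 with all 18 libraries and 384 or 257 with replicate 2 or 3 of the soft group dropped instead of replicate 1. It was 42 without soft, high AHA replicate 3 and 51 without stiff, high AHA replicate 3. At low AHA it went from 408 to 245 without soft, low AHA replicate 1, and at mid AHA from 384 to 222 without soft, mid AHA replicate 2 and 254 without stiff, mid AHA replicate 1. For high minus low AHA on soft gels it went from 34 to 2 without soft, high AHA replicate 2, 8 without soft, low AHA replicate 1 and 69 without soft, high AHA replicate 3, and for any AHA difference on soft gels from 27 to 7, 12 and 53 without the same libraries and to 46 with the filter of 2 counts. On stiff gels it was 1 as reported, for high minus low AHA 0 to 11 under other settings and 0 to 15 with a library left out, and for any AHA difference 0 to 17 and 0 to 12, with the highest left-out count of each without stiff, high AHA replicate 1. For unequal stiffness differences it was 4 as reported, 2 to 12 under other settings, and up to 12 with a library left out (stiff, low AHA replicate 2). Depth limits Dusp14 most, at 98 to 265 counts a library.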
